A study of Mus musculus with 20 samples.

Results

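The TNF ligand and receptor superfamily was taken as every gene whose name in the deposited table starts with Tnfsf or Tnfrsf, together with Tnf, Lta, Ltb, Cd40, Cd40lg, Cd27, Cd70, Fas and Fasl. The rule is written on gene names. It gave 41 genes of the 25219 in the table, of which 18 are ligands and 23 are receptors. RNA-seq counts of these genes were compared between mice with and without α4 in adipocytes, in inguinal white adipose tissue (iWAT) and brown adipose tissue (BAT), with 5 libraries in each of 4 groups. α4 is encoded by Igbp1 and protects protein phosphatases from degradation.

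Ai-α4KO mice carried floxed α4 alleles and an Adiponectin-CreERT2 transgene, which deletes in adipocytes once tamoxifen is given. Control mice carried the same floxed alleles without the transgene, although their labels give the genotype as WT. Animals of all groups were males on a mixed C57Bl/6 background. All of them received tamoxifen at 100 mg/kg, injected 5 times within 6 days from 2 months of age, and tissue was taken 1 week after recombination. The groups are called Control iWAT, Ai-α4KO iWAT, Control BAT and Ai-α4KO BAT. No source used here states whether both tissues came from the same mice or that each library came from a mouse of its own, so the p-values measure the spread between these libraries. Whole tissue was sequenced, and in such samples fewer cells of a type and less RNA per cell cannot be told apart.

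TNF superfamily ligands are membrane proteins that assemble as trimers, and several are cut from the cell surface into soluble form. Their receptors bind them through cysteine-rich repeats and signal through TRAF adaptors to NF-κB and MAP kinases, or through a cytoplasmic death domain to caspases. In adipose tissue the family is known for TNF made by macrophages, which lowers insulin sensitivity in adipocytes and promotes lipolysis.

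Totals of the counts per library ran from 24023371 to 50384446. Igbp1 itself fell in both tissues, from 57.5 to 76.6 CPM (counts scaled to the size of the library) in Control iWAT to 10.1 to 11.1 CPM in Ai-α4KO iWAT, and from 85.4 to 105 CPM in Control BAT to 13.7 to 25.2 CPM in Ai-α4KO BAT. Ucp1, the thermogenic protein of brown fat, stood at 4095 to 6674 CPM in Control BAT and at 5.13 to 314 CPM in Control iWAT. Control iWAT libraries 1 and 4 stood apart: 10 B cell markers summed to 578 and 227 CPM in them and to 7.46 to 9.35 CPM in the other 3 Control iWAT libraries, and 10 T cell markers summed to 280 and 314 CPM against 9.88 to 12.7 CPM. Values whose call or sign rested on these libraries are also given without them.

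Several members lie side by side in the mouse genome. Within 100 kb of another member lay 20 of the 41 genes, in 8 clusters. In the coordinates of the table, whose build is named as mm10, Ltb, Tnf and Lta occupied 10.8 kb of chromosome 17 from 35194507 to 35205351. Tnfsf9, Cd70 and Tnfsf14 lay on the same chromosome from 57105385 to 57194181. Tnfrsf26, Tnfrsf22 and Tnfrsf23 lay on chromosome 7 from 143607685 to 143685872. On chromosome 11 from 69682577 to 69696098, Tnfsfm13 is a read-through that shares exons with Tnfsf13 and Tnfsf12, so how reads were split among these 3 genes is uncertain.

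The 250 bases before the annotated start are shown for 6 members: the TNF gene and the ligand with the largest rise, the 3 members whose response differed between tissues with all libraries, and Tnfrsf12a, the receptor with the largest rise in iWAT. For Ltb, 1 of those 3, the difference did not pass without Control iWAT libraries 1 and 4. The sequences are from RefSeq, build GRCm38.p6, 5′ to 3′ on the strand of the gene. Capitals mark a match to TATAAA in Tnf, to the NF-kappaB consensus in Ltb and to TGANTCA, the AP-1 motif, in Tnfsf14, and a line without capitals holds no match to any of these 3. The windows are chr17:35202008-35202257 on the minus strand for Tnf, chr17:35194257-35194506 on the plus strand for Ltb, chr17:57194182-57194431 on the minus strand for Tnfsf14, chr4:145246871-145247120 on the minus strand for Tnfrsf1b, chr1:105780473-105780722 on the plus strand for Tnfrsf11a and chr17:23677450-23677699 on the minus strand for Tnfrsf12a.
Tnf: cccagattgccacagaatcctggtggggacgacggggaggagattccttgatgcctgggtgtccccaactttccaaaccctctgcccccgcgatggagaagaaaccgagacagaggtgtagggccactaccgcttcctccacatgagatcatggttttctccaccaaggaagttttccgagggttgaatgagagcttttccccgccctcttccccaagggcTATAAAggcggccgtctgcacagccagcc
Ltb: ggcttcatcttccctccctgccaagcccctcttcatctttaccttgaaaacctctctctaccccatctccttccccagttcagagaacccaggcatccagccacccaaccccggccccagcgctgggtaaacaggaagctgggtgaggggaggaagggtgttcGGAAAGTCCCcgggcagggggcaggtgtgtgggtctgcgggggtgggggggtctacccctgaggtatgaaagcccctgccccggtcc
Tnfsf14: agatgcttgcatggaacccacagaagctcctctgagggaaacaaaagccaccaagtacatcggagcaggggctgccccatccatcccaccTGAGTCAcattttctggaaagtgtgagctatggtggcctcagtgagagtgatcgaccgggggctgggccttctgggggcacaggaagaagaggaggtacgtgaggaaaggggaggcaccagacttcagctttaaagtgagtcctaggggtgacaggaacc
Tnfrsf1b: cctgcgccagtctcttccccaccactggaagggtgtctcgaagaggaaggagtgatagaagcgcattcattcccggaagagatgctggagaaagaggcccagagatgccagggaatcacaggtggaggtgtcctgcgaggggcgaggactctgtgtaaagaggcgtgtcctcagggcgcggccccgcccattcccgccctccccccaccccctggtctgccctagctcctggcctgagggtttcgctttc
Tnfrsf11a: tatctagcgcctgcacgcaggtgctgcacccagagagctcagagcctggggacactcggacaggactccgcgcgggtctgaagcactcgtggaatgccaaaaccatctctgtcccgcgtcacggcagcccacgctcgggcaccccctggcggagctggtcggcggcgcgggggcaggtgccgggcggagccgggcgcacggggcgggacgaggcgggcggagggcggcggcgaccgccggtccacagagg
Tnfrsf12a: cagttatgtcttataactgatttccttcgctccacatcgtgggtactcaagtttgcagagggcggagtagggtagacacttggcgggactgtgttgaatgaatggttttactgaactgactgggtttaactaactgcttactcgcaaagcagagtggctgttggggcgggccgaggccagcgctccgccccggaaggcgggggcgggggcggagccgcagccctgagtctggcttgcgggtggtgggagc
Promoter windows were at hand for 31 of the 41 members, and both strands were searched. The NF-kappaB consensus was found in 2 of the 31, Ltb and Tnfrsf8, which is 6.45% beside 7.25% of 32851 promoter windows of the same length. TGANTCA was found in 5 of the 31, namely Fas, Tnfsf13, Tnfsf13b, Tnfsf14 and Tnfrsf8, which is 16.1% beside 6.75%. TATAAA was found in 6 of the 31, namely Tnf, Lta, Tnfsf11, Tnfsf18, Tnfrsf17 and Tnfrsf23, which is 19.4% beside 12.4%. A match is a description of letters in the window. Tnfrsf11a had the highest GC content of the 6 windows shown, at 73.6% with 31 CG dinucleotides, against 56% and 4 CG dinucleotides in Tnfsf14.

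Deletion of α4 was accompanied by higher RNA of many members and by lower RNA of none that passed the test. A member counted as changed where edgeR's quasi-likelihood test over all genes of the tissue gave an adjusted p under 0.01 together with a change of 2-fold or more. In iWAT 13 of 36 tested members rose, where 11.3% of the 14604 genes tested rose, and 0 fell, where 10.7% of them fell and 22.0% changed in either direction. In BAT 18 of 29 tested members rose, where 18.2% of the 14344 genes tested rose, and 0 fell, where 13.3% of them fell and 31.5% changed in either direction. The median log2 fold change of the tested members was 0.87 in iWAT and 1.5 in BAT, beside 0.01 and -0.03 over all genes tested. Fold changes and their standard errors are drawn for every tested member in the plot of genotype effects.

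The filter on low counts shaped these counts, above all in BAT. A gene had to reach about 0.291 CPM in iWAT or 0.34 CPM in BAT in enough libraries to be tested. In BAT 19 members reached that level in all 5 Control libraries, and 9 of them rose, where 14.6% of all such genes rose. The other 10 tested members of BAT fell short of it in at least 1 Control library, and 9 of them rose, where 54.7% of all such genes rose. Those 9 were Tnf, Ltb, Tnfsf14, Tnfsf9, Tnfsf18, Cd27, Tnfrsf9, Tnfrsf18 and Tnfrsf26, which entered the test mainly through the group where they were high. In iWAT 26 members reached the level in all 5 Control libraries and 11 of them rose, where 10.6% of all such genes rose, and of the other 10 members 2 rose, Tnfsf14 and Tnfsf15, where 21.6% of all such genes rose.

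Beside the counts of 0, edgeR's unadjusted p was below 0.05 with a lower level in Ai-α4KO for 4 members in iWAT, namely Cd27, Ltb, Tnfrsf13c and Tnfrsf25, and for 1 in BAT, Tnfsf10, where 28.8% and 34% of all genes tested did so. The Wald test of DESeq2 called 1 member lower in iWAT, Tnfrsf13c, and 0 in BAT. All 4 of the iWAT members were high in Control iWAT libraries 1 or 4. Without those libraries 12 members rose in iWAT, where 11.9% of all genes tested rose, and 0 fell, where 11.8% did.

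Of the 13 calls in iWAT, 9 held whichever single library was left out, and of the 18 in BAT, 12 did. In iWAT the call of Fas was lost without Control library 1 or 5 or Ai-α4KO library 2, 3 or 5 (log2 fold change 0.85 to 0.98), and that of Tnfsf13 without Control library 3, 4 or 5 or Ai-α4KO library 1 or 3 (0.91 to 1). Tnfsf15 lost its call without Control library 1 or 2 or Ai-α4KO library 2, 3 or 4 (1.77 to 2.12), and Tnfrsf26 without Control library 2, 3 or 5 or Ai-α4KO library 2 or 3 (0.99 to 1.17). In BAT the call of Cd27 was lost without Control library 1, 3 or 4 or Ai-α4KO library 1 or 2 (1.33 to 1.45), and that of Tnfrsf18 without Control library 1, 2, 3 or 5 or Ai-α4KO library 2, 3 or 5 (1.81 to 2.02). Tnfrsf22 lost its call without Control library 1, 4 or 5 or Ai-α4KO library 1, 2 or 3 (0.91 to 1.08), Tnfsf13b without Control library 1 or 3 or Ai-α4KO library 5 (0.93 to 0.98), Tnfsf18 without Control library 4 or 5 or Ai-α4KO library 1 (1.56 to 1.6) and Tnfrsf19 without Control library 4 (2.37). Each of these values kept its sign.

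**Figure D1:**
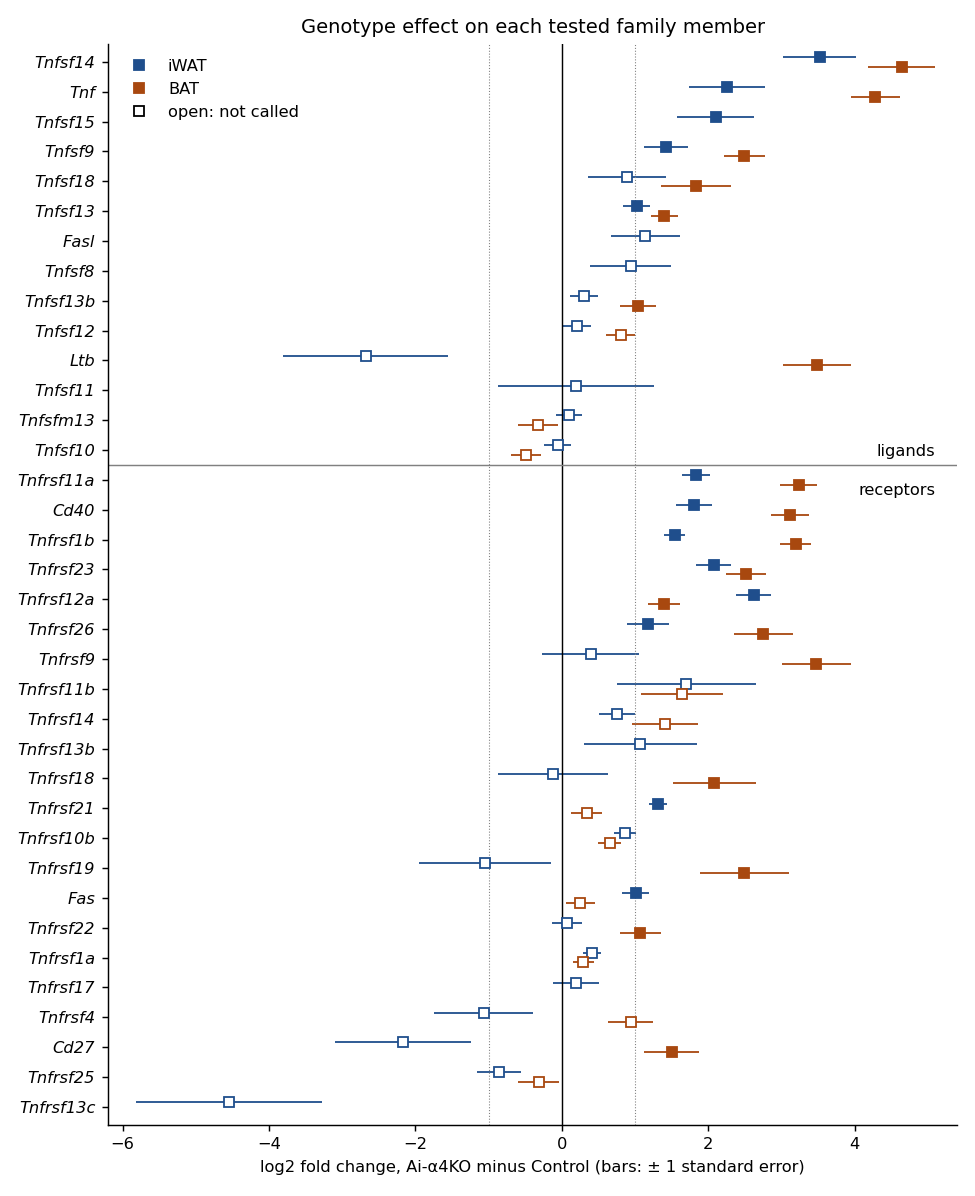
Log2 fold changes of Ai-α4KO against Control from edgeR, with bars of 1 standard error, for the 36 members tested in iWAT (blue) and the 29 tested in BAT (brown), ligands above the line and receptors below it; filled squares passed the test and dotted lines mark 2-fold. Every filled square lies to the right of 0, and the lowest open squares are Tnfrsf13c at -4.55 and Ltb at -2.68 in iWAT.

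Among the 29 members tested in both tissues, 10 rose in both, where 9.49% of the 13975 genes tested in both did. These were the ligands Tnf, Tnfsf14, Tnfsf9 and Tnfsf13 and the receptors Tnfrsf1b, Tnfrsf11a, Tnfrsf12a, Cd40, Tnfrsf23 and Tnfrsf26. None fell in both, where 7.71% of these genes did. No member moved in opposite directions past the test, 2 members passed in iWAT alone and 8 in BAT alone, and 9 passed in neither. Of the 13975 genes 0.0716% passed in opposite directions, 4.92% passed in iWAT alone, 13.7% in BAT alone and 64.1% in neither. The groups of 5 libraries did not overlap, with Ai-α4KO higher, for 15 members in iWAT and 17 in BAT, where the same held for 20.7% and 24.7% of all genes tested. They did not overlap with Ai-α4KO lower for 0 members in either tissue, where 18.3% and 23.0% of all genes did so. In either direction the groups were apart for 39% of all genes in iWAT and 47.6% in BAT.

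Tnf, the founding cytokine of the family and a product of activated macrophages, rose in both tissues. In iWAT it stood at 3.50, 0.839, 0.413, 3.04 and 0.938 CPM in Control libraries 1 to 5 and at 7.34, 10.4, 10.3, 8.43 and 5.78 CPM in Ai-α4KO libraries 1 to 5. In BAT it stood at 0.137, 0.391, 0.181, 0.282 and 0.159 CPM in Control and at 3.93, 4.92, 5.12, 3.12 and 6.43 CPM in Ai-α4KO. The groups did not overlap in either tissue, and the highest Control iWAT values were those of libraries 1 and 4. The log2 fold change of Tnf was 2.25 (SE 0.518, adjusted p = 0.00344) in iWAT and 4.28 (SE 0.336, adjusted p = 6.29e-07) in BAT. Without Control iWAT libraries 1 and 4 the iWAT value was 3.43 (adjusted p = 4.42e-05).

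Tnfsf14, known as LIGHT, a ligand of the lymphotoxin beta receptor and of Tnfrsf14, had the largest rise of the tested members in each tissue. Its iWAT values were 1.25, 0.715, 0.150, 0.810 and 0.909 CPM in Control and 5.43, 16.2, 11.4, 6.07 and 5.89 CPM in Ai-α4KO. Its BAT values were 0.228, 0.196, 0.0453, 0.494 and 0.159 CPM in Control and 5.45, 9.28, 4.87, 3.25 and 7.03 CPM in Ai-α4KO. Each Ai-α4KO library was above each Control library of its tissue. The log2 fold change was 3.52 (SE 0.499, adjusted p = 0.000144) in iWAT and 4.64 (SE 0.459, adjusted p = 3.87e-06) in BAT. The difference between these effects was 1.15 on the log2 scale (adjusted p = 0.258) and did not pass the test.

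Tnfsf9, the ligand of the T cell costimulatory receptor Tnfrsf9, rose by 1.42 on the log2 scale in iWAT (SE 0.306, adjusted p = 0.00234) and by 2.49 in BAT (SE 0.283, adjusted p = 1.19e-05). It ran from 0.608 to 1.5 CPM in Control iWAT and from 2.40 to 4.04 CPM in Ai-α4KO iWAT, and from 0.272 to 0.597 CPM in Control BAT and from 1.90 to 3.02 CPM in Ai-α4KO BAT. Tnfrsf9 rose in BAT, from 0.0782 to 0.637 CPM to 2.12 to 5.45 CPM, by 3.47 on the log2 scale (SE 0.470, adjusted p = 5e-05). In iWAT Tnfrsf9 stood at 4.34 and 2.66 CPM in Control libraries 1 and 4, at 0.293 to 0.601 CPM in the other Control libraries and at 1.51 to 2.64 CPM in Ai-α4KO. Its iWAT log2 fold change was 0.39 (adjusted p = 0.643) with all libraries and 2.27 (adjusted p = 0.000674) without libraries 1 and 4.

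The B cell survival factors Tnfsf13 (APRIL) and Tnfsf13b (BAFF) also differed with genotype. Tnfsf13 rose from 5.55 to 9.42 CPM to 12.2 to 20.5 CPM in iWAT and from 3.49 to 4.46 CPM to 7.64 to 14.3 CPM in BAT, with log2 fold changes of 1.02 (SE 0.187, adjusted p = 0.000823) and 1.40 (SE 0.190, adjusted p = 5.23e-05). The iWAT value lies close to the 2-fold threshold. Tnfsf13b rose in BAT, from 0.774 to 1.39 CPM to 1.74 to 2.88 CPM, by 1.04 on the log2 scale (SE 0.248, adjusted p = 0.00299), and was 0.30 (adjusted p = 0.205) in iWAT. The neighbours of Tnfsf13 did not pass: Tnfsfm13 had log2 fold changes of 0.10 and -0.33, and Tnfsf12 (TWEAK), the ligand of Tnfrsf12a, had 0.21 and 0.80 in iWAT and BAT.

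Tnfsf15, the ligand of Tnfrsf25, rose in iWAT from 0.0376 to 0.440 CPM to 0.648 to 2.10 CPM, by 2.10 on the log2 scale (SE 0.524, adjusted p = 0.00553). In BAT, where the filter also kept it from the test, it was at 0 to 0.119 CPM in Control and 0.258 to 1.3 CPM in Ai-α4KO, without overlap, and it was called higher with no filter and in one fit of all 4 groups. Tnfsf18, the ligand of Tnfrsf18, rose in BAT from 0.0353 to 0.196 CPM to 0.374 to 0.759 CPM, by 1.83 (SE 0.480, adjusted p = 0.00555), and was 0.89 (adjusted p = 0.179) in iWAT. Tnfsf10 (TRAIL), a death ligand, at 13.4 to 25.1 CPM in Control iWAT and 20.6 to 43.1 CPM in Control BAT, had log2 fold changes of -0.06 in iWAT and -0.49 in BAT, neither of which passed. Fasl, the other death ligand, had 1.14 (adjusted p = 0.0608) in iWAT. In BAT it was kept from the test by the filter on low counts, at 0.137, 0.0782, 0.227, 0.247 and 0.0796 CPM in Control libraries 1 to 5 and 0.624, 0.535, 0.762, 0.354 and 0.668 CPM in Ai-α4KO libraries 1 to 5. The groups did not overlap there, and Fasl was called higher in BAT with no filter and in one fit of all 4 groups. Tnfsf8, also tested in iWAT alone, had 0.94 (adjusted p = 0.170). Tnfsf11 (RANKL), the osteoclast factor, had 0.19 (adjusted p = 0.897) in iWAT, where Control library 1 at 2.52 CPM and Ai-α4KO library 1 at 2.71 CPM stood above the other libraries at 0.0621 to 0.405 CPM.

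Tnfrsf1b (TNFR2), the TNF receptor that membrane-bound TNF engages best, rose in both tissues, while Tnfrsf1a (TNFR1), which carries a death domain, did not pass the test. In iWAT Tnfrsf1b stood at 73.8, 48.0, 46.2, 44.4 and 49.5 CPM in Control libraries 1 to 5 and at 158, 151, 167, 144 and 145 CPM in Ai-α4KO. In BAT it stood at 9.24, 10.4, 8.16, 15 and 11.4 CPM in Control and at 102, 136, 86.1, 71.8 and 112 CPM in Ai-α4KO. The lowest Ai-α4KO BAT library was thus near the highest Control iWAT library, and neither tissue showed overlap between genotypes. The log2 fold change was 1.54 (SE 0.143, adjusted p = 9.84e-06) in iWAT and 3.19 (SE 0.211, adjusted p = 1.89e-07) in BAT. For Tnfrsf1a it was 0.41 (SE 0.125, adjusted p = 0.0153) in iWAT, where the groups did not overlap, and 0.29 (SE 0.142, adjusted p = 0.0909) in BAT, where they did.

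Tnfrsf12a (Fn14), the receptor of Tnfsf12 that is induced in injured tissue, had the largest rise of the receptors that passed the test in iWAT. Its iWAT values were 6.82, 4.41, 5.11, 6.08 and 6.71 CPM in Control and 55.8, 40.5, 30.1, 24.3 and 29.3 CPM in Ai-α4KO. Its BAT values were 16.2, 21.8, 11, 19.7 and 9.04 CPM in Control and 45.0, 39.8, 40.5, 36.4 and 46.8 CPM in Ai-α4KO. Control BAT was above Control iWAT in every library, and the Ai-α4KO groups of the tissues overlapped. The log2 fold change was 2.62 (SE 0.238, adjusted p = 8.4e-06) in iWAT and 1.39 (SE 0.215, adjusted p = 0.000139) in BAT.

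Tnfrsf11a (RANK), the receptor of Tnfsf11 on osteoclast precursors and dendritic cells, stood at 7.24, 9.60, 7.70, 6.48 and 7.56 CPM in Control iWAT and at 18.3, 24.5, 33.7, 24.7 and 36.5 CPM in Ai-α4KO iWAT. In BAT it stood at 1.18, 1.96, 1.54, 2.96 and 2.19 CPM in Control and at 16.2, 24.6, 22.2, 14 and 18.2 CPM in Ai-α4KO. The genotypes were apart in both tissues, and the Control levels of BAT were the lowest of the 4 groups. The log2 fold change was 1.83 (SE 0.192, adjusted p = 1.93e-05) in iWAT and 3.23 (SE 0.259, adjusted p = 7.44e-07) in BAT. Cd40, the costimulatory receptor of B cells, dendritic cells and macrophages, rose from 3.20 to 7.65 CPM to 15.2 to 18.8 CPM in iWAT and from 0.861 to 1.83 CPM to 8.34 to 14.8 CPM in BAT. Its log2 fold change was 1.80 (SE 0.244, adjusted p = 0.000103) in iWAT and 3.11 (SE 0.258, adjusted p = 9.54e-07) in BAT.

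**Figure D2:**
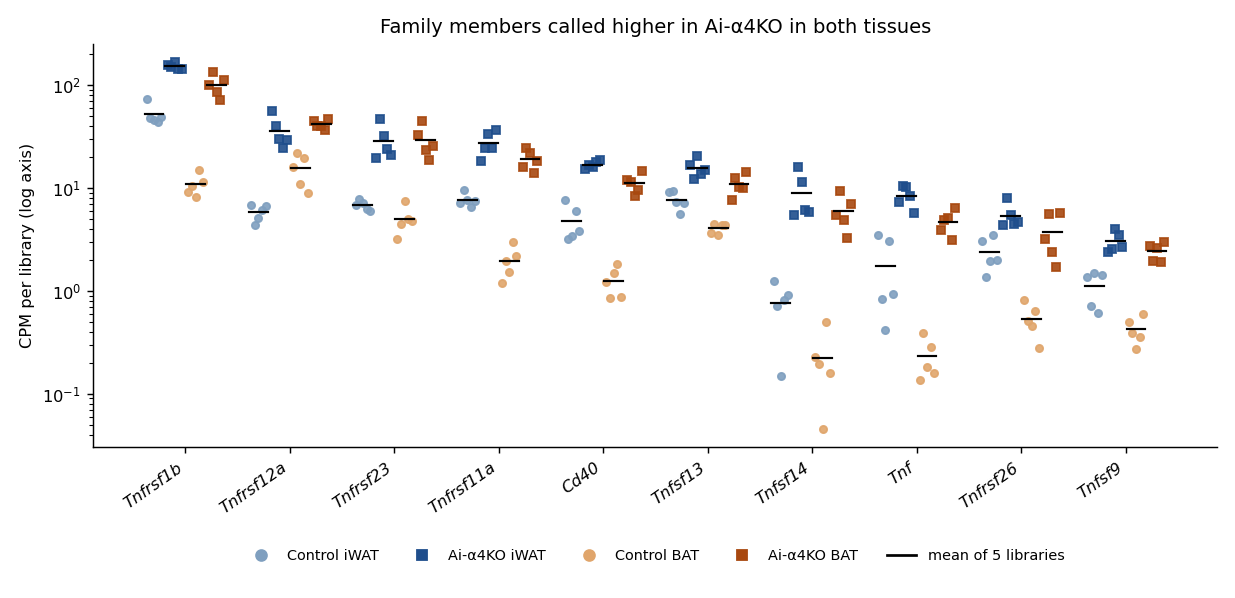
CPM on a log axis in each of the 20 libraries for the 10 members that rose in both tissues, ordered by their level in Ai-α4KO iWAT, with the mean of 5 libraries as a black line. For each member and tissue the Ai-α4KO libraries (squares) lie above the Control libraries (circles), and Tnf and Tnfsf14 in Control BAT lie below 0.5 CPM.

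The neighbouring receptors of chromosome 7 differed in part. Tnfrsf23, a decoy receptor of TRAIL in the mouse, rose from 5.98 to 7.89 CPM to 19.7 to 47.4 CPM in iWAT and from 3.23 to 7.57 CPM to 18.9 to 45.2 CPM in BAT, by 2.07 (SE 0.238, adjusted p = 3.49e-05) and 2.51 (SE 0.273, adjusted p = 8.47e-06) on the log2 scale. Tnfrsf26 rose by 1.17 in iWAT (SE 0.288, adjusted p = 0.00521) and by 2.75 in BAT (SE 0.407, adjusted p = 9.78e-05). Tnfrsf22, the other TRAIL decoy, rose in BAT by 1.07 (SE 0.283, adjusted p = 0.00562), and was 0.07 (adjusted p = 0.802) in iWAT. Tnfrsf11b (osteoprotegerin), the soluble decoy of Tnfsf11, had log2 fold changes of 1.70 (SE 0.945, adjusted p = 0.149) in iWAT and 1.64 (SE 0.560, adjusted p = 0.0222) in BAT. Ai-α4KO iWAT library 1 held Tnfrsf11b at 8.14 CPM while the other 4 held it at 0.289 to 0.609 CPM, and without that library the iWAT value was -0.46 (adjusted p = 0.391).

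Of the receptors with a death domain, Fas and Tnfrsf21 passed the test in iWAT and not in BAT. Fas stood at 20.8, 32.1, 34.4, 29.9 and 21.9 CPM in Control iWAT and at 38.3, 67.4, 63.1, 51.2 and 60.4 CPM in Ai-α4KO iWAT. Tnfrsf21 (DR6) stood at 17.5, 13.3, 15.4, 17.0 and 15.2 CPM in Control iWAT and at 33.1, 34.4, 42.2, 38.4 and 47.1 CPM in Ai-α4KO iWAT. Neither overlapped between genotypes in iWAT, and both overlapped in BAT. For Fas the log2 fold change was 1.01 (SE 0.184, adjusted p = 0.000819) in iWAT and 0.25 (SE 0.198, adjusted p = 0.291) in BAT. For Tnfrsf21 it was 1.31 (SE 0.122, adjusted p = 1.01e-05) in iWAT and 0.34 (SE 0.211, adjusted p = 0.180) in BAT. The difference between tissues had an adjusted p of 0.0865 for Fas and 0.0164 for Tnfrsf21, so neither passed the threshold of 0.01. Tnfrsf10b, the TRAIL death receptor, was apart between genotypes in both tissues without reaching 2-fold, at 0.86 (SE 0.149, adjusted p = 0.000562) in iWAT and 0.65 (SE 0.151, adjusted p = 0.0028) in BAT. Tnfrsf25 (DR3) had values of -0.86 (adjusted p = 0.0290) in iWAT, or -0.51 (adjusted p = 0.0970) without Control libraries 1 and 4, and -0.32 (adjusted p = 0.321) in BAT.

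Several lymphocyte members of iWAT were dominated by Control libraries 1 and 4, but not all were. Tnfrsf17 stood at 0.720 and 0.694 CPM in these libraries and at 0.939 to 1.12 CPM in the other Control iWAT libraries. Tnfrsf13b stood at 2.10 and 0.521 CPM in them, beside 0.778 to 2.11 CPM in Ai-α4KO iWAT. In iWAT, Ltb, the membrane anchor of the lymphotoxin trimer, stood at 91.6, 1.49, 1.31, 40 and 1.5 CPM in Control libraries 1 to 5 and at 5.06, 7.47, 3.70, 2.51 and 2.57 CPM in Ai-α4KO. Cd27, a receptor of T and B cells, stood at 11.4, 0.528, 0.451, 12.5 and 0.674 CPM and at 0.914, 1.71, 0.683, 1.34 and 1.06 CPM. Tnfrsf13c, the BAFF receptor of B cells, stood at 19.8, 0.217, 0.601, 11.4 and 0.293 CPM and at 0.2, 0.319, 0.210, 0.0895 and 0.571 CPM. For Ltb, Cd27 and Tnfrsf13c libraries 1 and 4 were the highest of the 10, and the other 3 Control libraries were below every Ai-α4KO library for Ltb and Cd27. With all libraries the log2 fold changes were -2.68 (SE 1.13, adjusted p = 0.0647) for Ltb, -2.17 (SE 0.928, adjusted p = 0.0677) for Cd27 and -4.55 (SE 1.27, adjusted p = 0.0103) for Tnfrsf13c. Without libraries 1 and 4 they were 1.49 (adjusted p = 0.0116), 0.96 (adjusted p = 0.0528) and -0.49 (adjusted p = 0.516).

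Tnfrsf18 (GITR) and Tnfrsf4 (OX40), receptors of activated and regulatory T cells that are neighbours on chromosome 4, had the same pattern. In iWAT Tnfrsf18 stood at 5.46, 0.342, 0.300, 5.09 and 0.703 CPM in Control and at 1.57, 3.33, 2.34, 2.11 and 1.74 CPM in Ai-α4KO. Its log2 fold change was -0.12 (adjusted p = 0.907) with all libraries and 2.20 (adjusted p = 0.0016) without Control libraries 1 and 4, so the sign and the call both rested on them. Tnfrsf4 went from -1.07 (adjusted p = 0.207) to 0.74 (adjusted p = 0.166). Tnfsf8 passed without them as well, at 2.14 (adjusted p = 0.00516), whereas 4 members that had passed no longer did. Fas at 0.84 (adjusted p = 0.00704) and Tnfsf13 at 0.89 (adjusted p = 0.00383) were then under 2-fold, and Tnfsf15 at 2.24 (adjusted p = 0.0190) and Tnfsf9 at 1.23 (adjusted p = 0.0108) missed the threshold of 0.01. The part of lymphocytes in these values was not tested.

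**Figure D3:**
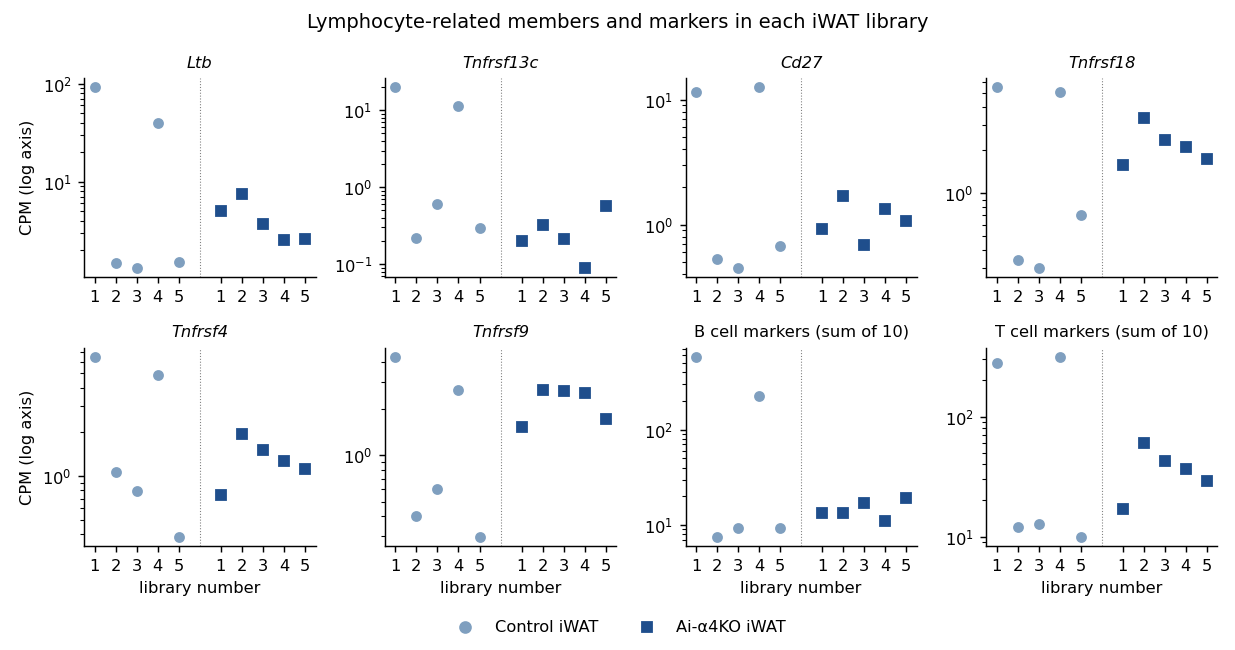
CPM on log axes in each iWAT library, Control 1 to 5 on the left of each panel and Ai-α4KO 1 to 5 on the right, for 6 members and for the summed B cell and T cell markers. Control libraries 1 and 4 hold the 2 highest values of the 10 libraries in each panel, with Tnfrsf9 the closest case, where library 4 at 2.66 CPM stands beside Ai-α4KO libraries at up to 2.64 CPM.

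BAT held no library of this kind. B cell markers summed to 1.72 to 5.51 CPM in Control BAT and to 7.40 to 20.5 CPM in Ai-α4KO BAT, and T cell markers to 3.26 to 6.17 CPM and 16.1 to 62.8 CPM. Of these lists 3 of 5 tested B cell markers and 5 of 8 tested T cell markers rose in BAT, where 18.2% of all genes tested did. Ltb stood at 0.683, 0.508, 0.136, 0.529 and 0.279 CPM in Control BAT and at 3.06, 7.30, 3.35, 2.58 and 8.26 CPM in Ai-α4KO BAT, without overlap, and rose by 3.48 on the log2 scale (SE 0.468, adjusted p = 4.69e-05). Cd27 rose in BAT by 1.5 (SE 0.377, adjusted p = 0.00432) from 0.137 to 0.508 CPM to 0.579 to 1.12 CPM. Tnfrsf18 rose by 2.08 (SE 0.563, adjusted p = 0.00661) with overlap between the groups, from 0.0398 to 0.529 CPM to 0.322 to 1.41 CPM. Tnfrsf4 at 0.94 (adjusted p = 0.0182) and Tnfrsf14 (HVEM) at 1.41 (adjusted p = 0.0161) did not pass in BAT. Tnfrsf14 had 0.75 (adjusted p = 0.0226) in iWAT.

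Tnfrsf19 (TROY), a receptor without a death domain that is expressed in progenitor cells, rose in BAT by 2.49 on the log2 scale (SE 0.604, adjusted p = 0.00348). It stood at 0.774, 9.04, 4.30, 3.17 and 5.85 CPM in Control BAT and at 13.1, 11.8, 22.9, 67.9 and 17.4 CPM in Ai-α4KO BAT. Skeletal muscle markers, 6 in all, summed to 788, 7367, 4372, 4336 and 7883 CPM in the same Control libraries and to 10960, 12400, 20420, 36880 and 20230 CPM in the same Ai-α4KO libraries. Control library 1 was the lowest and Ai-α4KO library 4 the highest in both measures. Of these markers 5 rose in BAT, where 18.2% of all genes tested did. With the muscle marker score of each library as a covariate the log2 fold change of Tnfrsf19 was -0.01 (adjusted p = 0.975), and 5 other calls in BAT were lost as well. The log2 fold changes of Cd27 and Tnfsf13b went from 1.5 and 1.04 to 1.2 (adjusted p = 0.126) and 0.58 (adjusted p = 0.239). Tnfrsf22 stayed at 1.07 (adjusted p = 0.0774), and Tnfrsf18 and Tnfsf18 went up from 2.08 and 1.83 to 2.63 (adjusted p = 0.046) and 2.47 (adjusted p = 0.0205), so these 3 calls were lost without a smaller fold change. The muscle marker sums of the genotypes did not overlap in BAT, and their part in these values was not tested. In iWAT Tnfrsf19 had -1.05 (SE 0.902, adjusted p = 0.348), and -2.69 (adjusted p = 0.00886) without Ai-α4KO library 1, which also held muscle markers at 3576 CPM. Control iWAT library 4 held muscle markers at 6421 CPM and Tnfrsf19 at 2.98 CPM, against 0.376 to 0.868 CPM in the other Control libraries, and without Control libraries 1 and 4 the iWAT value was -0.06 (adjusted p = 0.967).

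**Figure D4:**
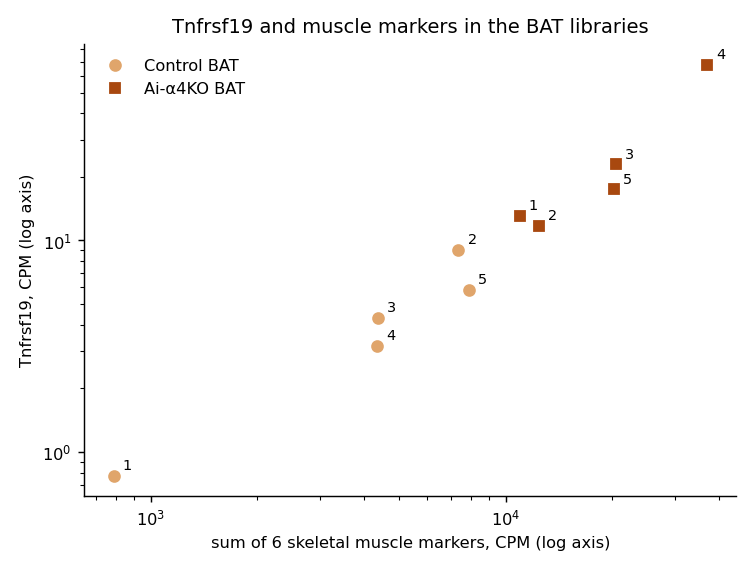
Tnfrsf19 in CPM against the sum of 6 skeletal muscle markers in CPM, both on log axes, for the 5 Control BAT (circles) and 5 Ai-α4KO BAT (squares) libraries, numbered. Ai-α4KO library 4 is highest on both axes at 67.9 and 36880 CPM, and Control library 1 is lowest at 0.774 and 788 CPM.

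None of the 3 receptors for APRIL and BAFF was tested in BAT. Tnfrsf13b (TACI) had a log2 fold change of 1.07 (adjusted p = 0.260) in iWAT, or 2.51 (adjusted p = 0.0201) without Control libraries 1 and 4, and Tnfrsf17 (BCMA), the receptor of plasma cells, had 0.19 (adjusted p = 0.632). In Control BAT Tnfrsf13b held 0 counts in every library, which allows up to 3 counts in each, while Ai-α4KO BAT ranged from 0 to 1.10 CPM. The 5 members tested in neither tissue were Cd40lg, Cd70, Lta, Tnfrsf8 and Tnfsf4. Lta, the soluble lymphotoxin, held 170 and 99 counts in Control iWAT libraries 1 and 4 and at most 17 counts in any other library. Cd40lg held 50 and 28 counts in those libraries and at most 6 elsewhere. Tnfsf4, the ligand of Tnfrsf4, held 0 counts in each Control BAT library and 7 to 14 counts in each Ai-α4KO BAT library. Cd70 and Tnfrsf8 held at most 3 and 7 counts in any library, and no difference in them was detectable at this depth.

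Markers of several blood cell types moved with genotype beside the family. Of 11 macrophage markers, 10 rose in iWAT and 11 in BAT, and their sum went from 1490 to 2615 CPM to 8852 to 11730 CPM in iWAT and from 304 to 687 CPM to 5152 to 8501 CPM in BAT. Neutrophil markers, 5 of the 6 listed being in the table, summed to 19.2 to 88.4 CPM and 145 to 480 CPM in iWAT and to 11.8 to 35.1 CPM and 199 to 359 CPM in BAT, and 4 and 5 of them rose. Of 6 dendritic cell markers 2 rose in iWAT and 6 in BAT, and of 5 NK cell markers 4 and 5 rose. Adipocyte markers went the other way, with 6 and 5 of 8 lower, and 3 and 4 of 6 endothelial markers were lower. Of 7 markers of adipocyte progenitors and fibroblasts, 0 rose in iWAT and 3 rose in BAT. Their sum went from 955 to 1842 CPM to 3339 to 4773 CPM in BAT. In iWAT it ran from 3138 to 7792 CPM in Control and from 4021 to 8944 CPM in Ai-α4KO. Of all genes tested 11.3% rose and 10.7% fell in iWAT, and 18.2% rose and 13.3% fell in BAT. No listed marker of these types was at 0 in all libraries of a group, and their part in the family's values was not tested.

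The interaction of genotype and tissue was used to ask whether a member responded differently in BAT and iWAT. Of 37 members tested, 3 passed at an adjusted p below 0.01, where 4.86% of the 15230 genes tested passed, and all 3 had the larger response in BAT. The difference was 1.68 on the log2 scale for Tnfrsf1b (SE 0.252, adjusted p = 0.000492), 1.43 for Tnfrsf11a (SE 0.317, adjusted p = 0.00648) and 6.18 for Ltb (SE 1.38, adjusted p = 0.00685). Without Control iWAT libraries 1 and 4 the value for Ltb was 2.06 (adjusted p = 0.0486), while Tnfrsf1b at 1.67 (adjusted p = 0.000624) and Tnfrsf11a at 1.65 (adjusted p = 0.00643) still passed. Cd40 at 1.34 (adjusted p = 0.0156) and Tnf at 2.05 (adjusted p = 0.0386) were larger in BAT without passing, at 0.98 and 0.92 without those libraries, and Tnfrsf12a at -1.20 (adjusted p = 0.0200) was larger in iWAT without passing. Ltb lost its call when any of 12 of the 20 libraries was left out, each Control BAT library among them, at 4.99 to 6.39. Tnfrsf11a lost its call when Control iWAT library 2 or Control BAT library 1, 2 or 3 was left out, at 1.29 to 1.42 (adjusted p = 0.0113 to 0.0154).

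Levels without deletion were set side by side to show where the members start. Between Control BAT and Control iWAT 17 of 37 members were lower in BAT, where 15.4% of the genes tested were, and 1 was higher, where 7.34% of the genes tested were. The higher member was Tnfrsf12a, by 1.41 on the log2 scale (SE 0.238, adjusted p = 6.6e-05). Lower in BAT were Tnfrsf1b at -2.27 (SE 0.186, adjusted p = 2.67e-08), Tnfsf13b at -2.04 (SE 0.211, adjusted p = 2.9e-07), Tnfrsf11a at -1.96 (SE 0.235, adjusted p = 1.52e-06), Cd40 at -1.94 (SE 0.260, adjusted p = 5.34e-06) and Tnf at -2.90 (SE 0.505, adjusted p = 9.35e-05). Without Control iWAT libraries 1 and 4 the value for Tnf was -1.65 (adjusted p = 0.00162) and that for Cd40 was -1.46 (adjusted p = 6.18e-05). Tnfrsf13c and Tnfrsf13b had at most 3 counts in every Control BAT library and were at least 52.5-fold and 5.41-fold lower there than their mean in Control iWAT, against a floor of 3 counts per library. Without Control iWAT libraries 1 and 4 these bounds were 3.01-fold for Tnfrsf13c and 1.93-fold for Tnfrsf13b. Ltb, Cd27, Tnfrsf18, Tnfrsf4, Tnfrsf9, Tnfrsf14, Tnfrsf17, Tnfrsf25, Tnfrsf26 and Tnfsf9 made up the rest. Without Control iWAT libraries 1 and 4, 11 members were lower, where 12.5% of all genes tested were. Tnfrsf22 at -1.01 (adjusted p = 0.00857) joined them, and Cd27, Tnfrsf13b, Tnfrsf14, Tnfrsf18, Tnfrsf25, Tnfrsf4 and Tnfrsf9 were no longer among them.

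The order of the members was read from FPKM, the deposited value per transcript length. Tnfrsf1a was highest in all 4 groups, at 51.9 ± 7.45 FPKM (SD, n = 5) in Control iWAT, 75.7 ± 11.9 in Ai-α4KO iWAT, 39.99 ± 4.87 in Control BAT and 59.4 ± 15.4 in Ai-α4KO BAT. In Control iWAT, Ltb followed at 23.2 ± 34.2 FPKM, a mean carried by libraries 1 and 4, and then Fas at 13.8 ± 2.64, Tnfrsf1b at 9.64 ± 2.60 and Tnfsf12 at 7.41 ± 1.80 FPKM, where Tnfrsf1b and Tnfsf12 were within their spread of each other. In Control BAT, Fas at 19.8 ± 4.44 and Tnfrsf12a at 12.5 ± 4.29 FPKM followed. In Ai-α4KO iWAT, Tnfrsf12a at 36.6 ± 13.2, Tnfrsf1b at 30.5 ± 1.90 and Fas at 30.4 ± 6 FPKM followed and did not differ beyond their spread. In Ai-α4KO BAT, Tnfrsf12a at 39.5 ± 5.22, Fas at 28.3 ± 7.88 and Tnfrsf1b at 19 ± 5.42 FPKM followed. The ligands stayed below these receptors in both Ai-α4KO groups, with Tnfsf12 at 9.35 ± 2.22 FPKM in iWAT and 8.19 ± 2.10 FPKM in BAT as the highest, although Tnfsf13 at 9.15 ± 1.83 FPKM was within its spread in iWAT.

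Genes that act beside the family were taken from a list of 40, holding receptors outside the name rule, TRAF adaptors, kinases, caspase regulators, ubiquitin enzymes and shedding factors. Of the 39 tested, 11 rose and 1 fell in iWAT, and 11 rose and 3 fell in BAT, where the shares of all genes were 11.3%, 10.7%, 18.2% and 13.3%. The median log2 fold change was 0.52 in iWAT and 0.35 in BAT. In both tissues 8 rose, namely Tnip3, Tnfaip3, Birc3, Casp8, Ripk3, Adam17, Relt and Eda2r, and 1 fell, Eda, where 9.49% and 7.71% of the genes tested in both tissues did. The largest was Tnip3, a binding partner of A20, at 4.35 (SE 0.286, adjusted p = 2.18e-06) in iWAT and 5.07 (SE 0.398, adjusted p = 6.3e-07) in BAT.

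The signalling genes that rose in both tissues act at different steps. Tnfaip3 encodes A20, a ubiquitin-editing brake on NF-κB, and rose by 1.44 in iWAT (SE 0.246, adjusted p = 0.000512) and 2.03 in BAT (SE 0.279, adjusted p = 5.49e-05). Birc3 encodes cIAP2, a ubiquitin ligase of the TNF receptor complex, and rose by 1.74 and 2.20. Casp8, the initiator caspase of death receptors, rose by 1.41 and 1.57, and Ripk3, the kinase of necroptosis, by 1.93 and 2.32. Adam17, the protease that sheds TNF and its receptors, rose by 1.29 and 1.09.

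Traf1 rose in BAT by 3.56 (adjusted p = 2.88e-06), as did Traf5 by 2.07 (adjusted p = 2.42e-05) and Map3k14, the NIK kinase of the alternative NF-κB pathway, by 1.52 (adjusted p = 7.88e-06). In iWAT these had 1.07, 0.62 and 0.79 and did not pass with all libraries. Traf1 stood at 20.1 and 13.0 CPM in Control iWAT libraries 1 and 4, at 2.08 to 2.59 CPM in the other 3 and at 12.2 to 20.6 CPM in Ai-α4KO iWAT. Without libraries 1 and 4 Traf1 at 2.75 (adjusted p = 1.43e-05), Traf5 at 1.11 (adjusted p = 0.00217) and Map3k14 at 1.11 (adjusted p = 9.85e-05) passed in iWAT. Tank at 1, Tnip2 at 1.01 and Ngfr at 1.64 rose in iWAT with all libraries, and without libraries 1 and 4 Tank at 0.89 and Tnip2 at 0.93 fell short of 2-fold. Traf4 fell in BAT by 2.16 (adjusted p = 2.29e-05) and had -0.47 (adjusted p = 0.111) in iWAT, and it was the only gene of the list to pass the interaction, at -1.66 (adjusted p = 0.00643), or -1.59 (adjusted p = 0.0264) without Control iWAT libraries 1 and 4. Rbck1, a subunit of the linear ubiquitin ligase, fell in BAT by 1.04 (adjusted p = 5.48e-05). Eda, the ectodysplasin ligand, fell by 1.61 in iWAT (SE 0.212, adjusted p = 8.31e-05) and by 2.32 in BAT (SE 0.131, adjusted p = 8.04e-08), while its receptor Eda2r rose by 2.29 and 2.71. In BAT Eda2r stood at 1.18, 4.11, 3.58, 2.43 and 4.02 CPM in Control and at 13.3, 11.7, 20.4, 37.85 and 19.9 CPM in Ai-α4KO. Control BAT library 1 was the lowest and Ai-α4KO BAT library 4 the highest, as for the skeletal muscle markers. The part of muscle in the Eda2r values was not tested. Ltbr, the receptor of Ltb and Tnfsf14, was picked out after its values were seen and had log2 fold changes of 0.11 and -0.17.

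**Figure D5:**
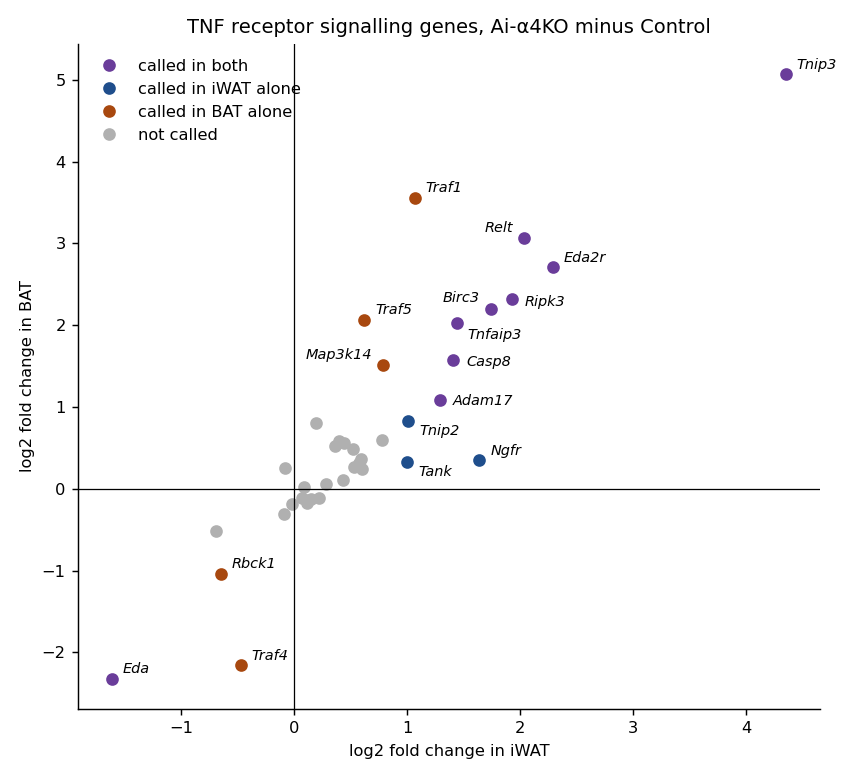
Log2 fold change in BAT against that in iWAT for the 39 tested TNF receptor signalling genes, colored by the tissue in which they passed the test. Tnip3 lies highest on both axes at 4.35 and 5.07, and Eda lies lowest on both at -1.61 and -2.32.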

How the data were processed

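RNA of iWAT and BAT was made into 20 stranded mRNA libraries, 5 per group, and sequenced. Per the labels, reads were made with bcl2fastq 2 and aligned with STAR 2.5.3a to mm10. The counting tool is not given in the sources used here. The deposited table holds expected counts, in which the authors left 76.7% of the non-zero values whole, and FPKM values, which the authors scaled by length and depth. Expected counts were rounded before testing, and FPKM values were used for levels between genes.

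CPM used TMM factors over all 20 libraries. Genotype was tested within each tissue with edgeR 4.0.16 (R 4.3.3, quasi-likelihood F test, filterByExpr, Benjamini-Hochberg adjustment over all genes, prior count 2), and the interaction and the Control comparison in one fit of the 4 groups. Calls needed an adjusted p below 0.01 and, except for the interaction, a fold change of at least 2. A standard error is the log2 fold change over the square root of F. The floor was 3 counts per library and covers counting error only. Scripts were tested on simulated counts, where a change counted as recovered at an adjusted p below 0.01 with the right sign. Of 100 changes of 2-fold, 33 were recovered in iWAT, 47 in BAT, 19 for the interaction and 50 for the Control comparison. Of 100 changes of 4-fold, 83, 88, 63 and 76 were recovered. A member that did not pass may thus still have changed. Alternatives used DESeq2 1.42.0, limma 3.58.1, other scalings and filters, marker covariates and left-out libraries. All members are accounted for by name, signalling genes were named where called in a tissue, and Ucp1 and Ltbr were named after their values were seen. Members and lists were chosen with earlier results of these data known. Replicate numbers were not taken to pair samples.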

Additional observations from a re-analysis of the deposited data

Results flagged for a closer look

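In 7 of 130 groups of 5 libraries, 1 library lay apart from the other 4 by more than 0.71 of the whole range of the group, the 95% critical value of Dixon's test, which chance alone passes in about 1 in 20 groups. Of these, 3 were Ai-α4KO iWAT library 1, with Tnfrsf11b at 8.144 CPM against 0.289 to 0.609 CPM, Tnfsf11 at 2.715 CPM against 0.205 to 0.341 CPM and Tnfrsf1a at 208.8 CPM against 152 to 162 CPM. Control iWAT library 1 held Tnfrsf1b at 73.77 CPM against 44.4 to 49.5 CPM in the others of its group. Tnfsf13b was low in Control iWAT library 5, at 3.078 CPM against 4.35 to 4.98 CPM, and Tnfsf14 was low in Control iWAT library 3, at 0.1503 CPM against 0.715 to 1.25 CPM. Tnfsf18 was high in Ai-α4KO BAT library 1, at 0.7591 CPM against 0.374 to 0.387 CPM.

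The effect of genotype differed between the tissues, by the edgeR interaction, for Tnfrsf1b (1.68 on the log2 scale), Tnfrsf11a (1.43) and Ltb (6.18). The Ltb value included Control iWAT libraries 1 and 4, at 91.6 and 40 CPM, and was 2.06 (adjusted p = 0.0486) without them. The Ltb call was also lost on leaving out any one of 12 of the 20 libraries, and that of Tnfrsf11a without Control iWAT library 2 or Control BAT library 1, 2 or 3, at 1.29 to 1.42. The Tnfrsf1b call held whichever single library was left out.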

How the results depend on the processing

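Leaving out 1 library at a time gave 9 to 12 members higher and 0 to 1 lower in iWAT, 15 to 21 higher in BAT, 1 to 4 with a tissue difference, 1 to 2 higher and 13 to 19 lower in Control BAT than in Control iWAT. The member lower in iWAT was Tnfrsf13c without Control library 2, 3 or 5, at -4.86, or Tnfrsf19 without Ai-α4KO library 1, at -2.69, and 1 member, Tnfrsf13c, was also lower at an adjusted p below 0.05, with DESeq2, with upper-quartile scaling and in one fit of all 4 groups. At an adjusted p below 0.05, 13 members differed between tissues and 2 were higher in Control BAT, and DESeq2 gave 12 tissue differences. With at least 10 counts in every library, 9 members rose in BAT and 6 were lower in Control BAT, and without Control iWAT libraries 1 and 4, 11 were lower there. In BAT 23 members rose with no filter, which added Fasl, Tnfrsf13b, Tnfsf11, Tnfsf15, Tnfsf4 and Tnfsf8 and lost Tnfsf18, and 22 in one fit of all 4 groups, which added Fasl, Tnfrsf13b, Tnfrsf14, Tnfsf15, Tnfsf4 and Tnfsf8 and lost Cd27 and Tnfrsf18. limma on log2(FPKM + 1) gave 9 members higher in iWAT, 12 in BAT and 0 signalling genes lower in iWAT. A change of setting also changes the calls of all other genes. The counts of this paragraph stand without the share of all genes under the same setting, so they cannot be read against that background.

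Signs turned for members that had not passed, and for Tnfrsf19 in BAT, which had. A turn within 1 standard error of an uncalled value was not counted. In iWAT Tnfrsf18 became 0.86 with limma on log2(FPKM + 0.1). With the B cell marker score as a covariate Tnfrsf18, Ltb, Cd27 and Tnfrsf4 became 1.99, 1.21, 0.67 and 0.56, and without Control libraries 1 and 4 they became 2.20, 1.49, 0.96 and 0.74, while the Tnfrsf18 interaction became -0.04. Without Ai-α4KO iWAT library 1, Tnfrsf11b became -0.46, Tnfsf11 became -1.28 and the Tnfrsf1a interaction became 0.12, and over all single left-out libraries they ran from -0.46 to 2.07, from -1.28 to 2.09 and from -0.17 to 0.12. With the muscle marker score, BAT values became -0.01 for Tnfrsf19, 0.28 for Tnfrsf25 and 0.20 for Tnfsfm13. The cause of these changes was not tested.

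Same-numbered libraries did not deviate together, with correlations from -0.451 to 0.244, so the numbers were not taken as pairs. With the replicate block 11 members rose in iWAT, 16 rose in BAT and 2 differed between tissues. The 2 were Tnfrsf1b and, newly, Tnfrsf13c (5.90, adjusted p = 0.00307), while Ltb (4.68, adjusted p = 0.0162) and Tnfrsf11a (1.49, adjusted p = 0.0109) did not pass. In that fit Tnfrsf18 in iWAT was 0.80.

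Without TMM factors the median log2 fold change of all genes was 0.13 in iWAT and 0.23 in BAT, and 13 and 22 members rose. Over all genes 1894 then rose and 1267 fell in iWAT, against 1656 and 1559 with TMM, and 3251 rose and 1265 fell in BAT, against 2614 and 1910. Members under about 1 CPM, among them Tnfsf15, Tnfsf18 and Fasl, rest on few counts.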
